A study of Mus musculus with 12 samples.

Results

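The transcripts described here are the ligands and receptors of the epidermal growth factor receptor (EGFR) system: 6 ligand genes (Hbegf, Areg, Ereg, Btc, Tgfa and Epgn) and 3 receptor genes (Egfr, Erbb2 and Erbb3). They were chosen by name, as 9 of the 17335 genes with a row in either of 2 deposited count tables. Earlier results of these data were known when they were chosen. All 9 had a row in the PSC4 table and 8 in the KPC4 table, and Epgn was not analysed here in KPC4. Of the 9, 8 passed the filter on low counts in every comparison, and Epgn did not.

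RNA was sequenced from 2 mouse cell lines in a supernatant transfer model, with 3 biological replicates in each of 4 groups and 12 libraries in all. PSC4 cells are stellate cells, a stromal cell type of the pancreas from which fibroblasts can arise, while KPC4 cells come from a pancreatic adenocarcinoma. PSC4 stood for 24 h in supernatant of donor KPC4 cells. The donors had been given vehicle for Control-SU, or gemcitabine at 10 µM, a chemotherapeutic nucleoside analogue, for Gem-SU; the drug was washed off after 6 h and starvation medium then left on the donors for 14 h. KPC4 recipients stood for 24 h in supernatant of PSC4 cells, named Control-PSC-SU where these had first met Control-SU and Gem-PSC-SU where they had met Gem-SU. That contact lasted 6 h, and after a wash the PSC4 cells conditioned new starvation medium over 18 h. The protocol adds gemcitabine to the donor KPC4 cells only, and every recipient of either line stood in conditioned starvation medium. Each line is a single established line, and the labels do not give how separate the cultures of the 3 replicates were, so that p-values measure the spread between these libraries.

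EGFR ligands are made as precursors that span the cell membrane. Proteases of the ADAM family cut them, and the freed part binds EGFR on the same or a neighbouring cell. ERBB2 has no known ligand of its own and acts as the partner of the other receptors, and ERBB3, whose kinase is weak, binds neuregulins and signals through its partner. Activated receptors start the RAS, RAF, MEK and ERK cascade and the PI3K and AKT pathway, and ERK in turn induces transcription factors, phosphatases and ligand genes. In the pancreas, EGFR and its ligands are known for their part in the change of acinar cells towards duct-like cells.

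In RefSeq's gene order, 4 of the 6 ligand genes, Epgn, Ereg, Areg and Btc, follow one another on mouse chromosome 5 with no other protein-coding gene between them. Promoter windows of RefSeq (GRCm38.p6) were examined for 6 of the 9 genes. Those of Hbegf, Ereg and Erbb3 were not examined. Hbegf and Ereg also rose in PSC4 below, and what their promoters hold is not known here. Among the genes examined, Areg was thus the only ligand gene that rose in PSC4. Btc is its neighbour and did not pass the test there. The 250 bases before the start of Areg and of Btc are shown. In KPC4, both genes were higher in every Gem-PSC-SU library than in any control library, as given below. Whether any motif bears on these changes was not tested. Capitals mark matches to the motifs searched on both strands: the cAMP response element TGACGTCA, the AP-1 site TGANTCA, the GC box GGGCGG, the TATA box TATAAA and the E box CACGTG. Areg lies on the plus strand (chr5:91139349-91139598) and Btc on the minus strand (chr5:91402995-91403244).
Areg: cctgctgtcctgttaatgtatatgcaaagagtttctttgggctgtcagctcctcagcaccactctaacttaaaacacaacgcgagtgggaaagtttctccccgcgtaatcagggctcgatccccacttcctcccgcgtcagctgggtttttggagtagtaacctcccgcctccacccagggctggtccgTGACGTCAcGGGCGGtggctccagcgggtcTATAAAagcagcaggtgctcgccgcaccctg
Btc: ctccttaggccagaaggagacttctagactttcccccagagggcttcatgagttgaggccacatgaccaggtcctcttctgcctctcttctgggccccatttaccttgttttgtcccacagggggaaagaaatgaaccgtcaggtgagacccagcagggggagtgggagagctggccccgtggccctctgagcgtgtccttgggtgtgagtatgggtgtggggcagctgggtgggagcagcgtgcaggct
The Areg window held a cAMP response element beginning 61 bases before the start, a GC box beginning 52 bases before it and a TATA box beginning 31 bases before it. A cAMP response element is present in 1.79% of all 32851 windows of 300 bases, an AP-1 site in 7.81%, a GC box in 35.7%, a TATA box in 13.6% and an E box in 7.15%. None of the 5 motifs was found in the Btc window. In the windows of 300 bases, which run to 50 bases past the start, Areg held 1 more GC box, beginning 38 bases past the start, Tgfa held 2 GC boxes, Egfr 1 GC box and Epgn 1 TATA box, and Erbb2 held none of the motifs. A match is a run of letters, and binding was not measured.

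Libraries held 29559414 to 38138356 gene counts in PSC4 and 26354328 to 34744150 in KPC4. Levels are given as CPM, the count scaled to a common library total, with TMM factors computed over all 12 libraries. Checked against the label, PSC4 held the markers of stellate cells and fibroblasts, with a summed level of 7399 to 9081 CPM in Control-SU libraries, and 11 of 12 markers were listed, all above 1 CPM. KPC4 held epithelial markers at 6172 to 7513 CPM in Control-PSC-SU libraries, with 9 of 10 listed, all above 1 CPM, and PSC4 held them at 16.1 to 16.4 CPM with Control-SU. The stellate and fibroblast markers summed to 159 to 217 CPM in KPC4 with Control-PSC-SU, with 6 of 12 listed and 3 above 1 CPM. Most of that was Sparc, at 157, 132 and 184 CPM. Markers of leukocytes and endothelium summed to at most 5.48 CPM in any group. The acinar list was represented by 1 gene in PSC4, at most 16.0 CPM, and by 2 in KPC4, at most 8.81 CPM. In the KPC4 Gem-PSC-SU group, replicates 1 and 2 stood further apart than any other pair within a group, with a root mean square difference of 0.950 on the log2 scale over genes, against 0.526 to 0.825 in the other 3 groups.

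**Figure D1:**
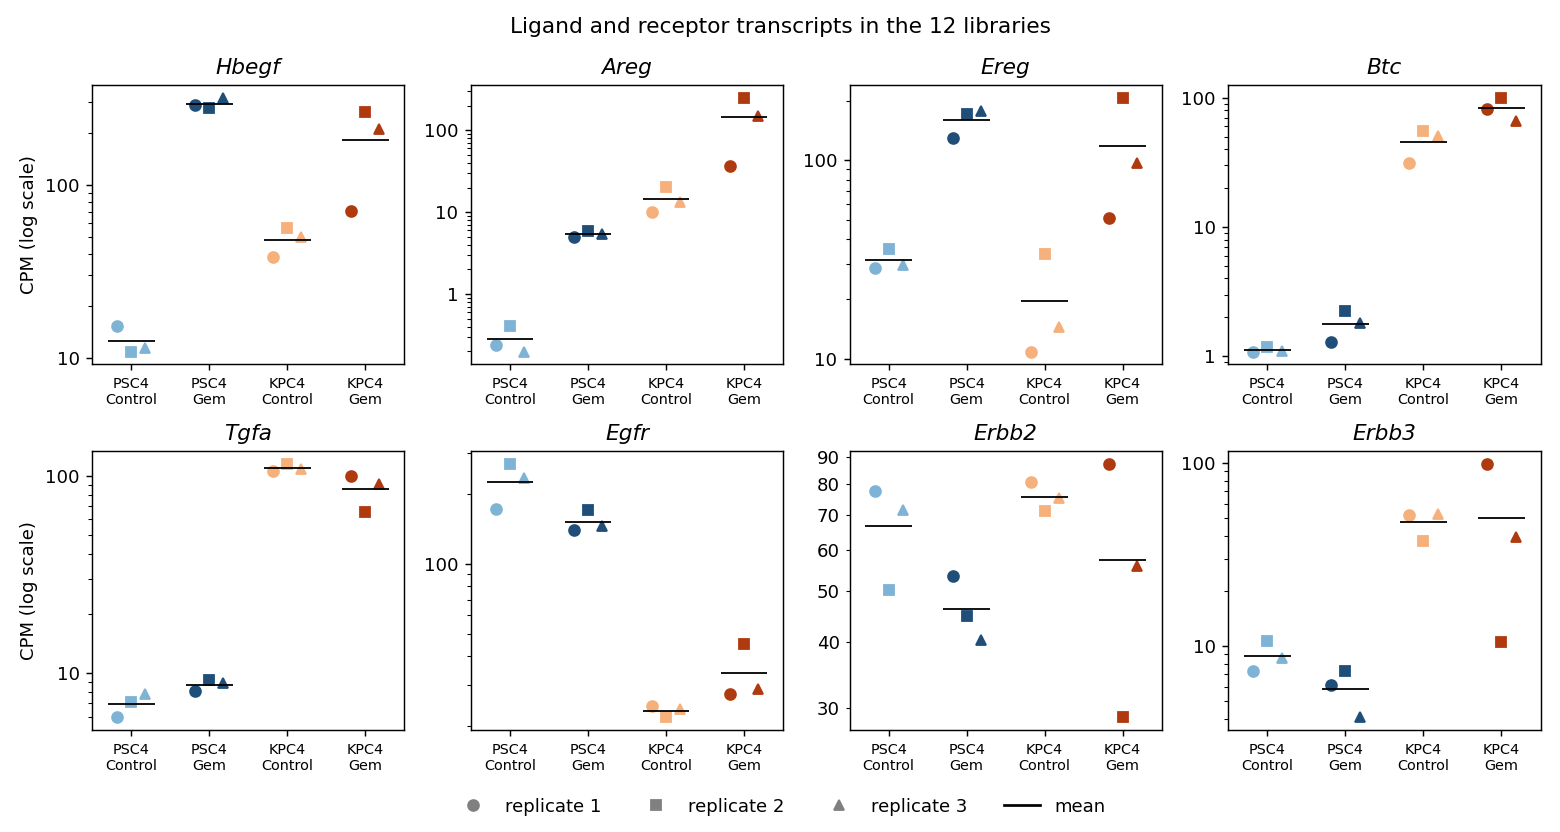
Level of the 8 tested genes in each library, in CPM on a log axis, by line and medium; the marker shape gives the replicate number and the bar the mean of 3. Hbegf, Areg and Ereg lie higher with Gem media in both lines. KPC4 Gem-PSC-SU libraries spread more widely than the other groups, by the ratio of highest to lowest, for every gene but Btc.

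The first question was which line holds which ligand and receptor transcript in the control media, where line and medium differ together and cannot be told apart. KPC4 was the line with more Tgfa, Btc, Areg, Hbegf and Erbb3, and PSC4 the line with more Egfr. Of the 8 genes tested, 5 were higher and 1 lower in KPC4 (edgeR's quasi-likelihood test, adjusted p under 0.05), where 42.9% of all 13632 genes tested differed, 20.6% being higher and 22.3% lower. The groups did not overlap for the same 6 genes, against 57.2% of all genes.

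Tgfa encodes transforming growth factor alpha, a ligand that binds EGFR. In PSC4 it stood at 5.94, 7.12 and 7.85 CPM, and in KPC4 at 106, 115 and 107 CPM. It was 15.7-fold higher in KPC4, 3.97 on the log2 scale with a standard error (SE) of 0.20 (edgeR, adjusted p = 4.83e-09). Btc encodes betacellulin, which binds EGFR and ERBB4. It stood at 1.09, 1.17 and 1.09 CPM in PSC4 and at 31.1, 55.4 and 50.4 CPM in KPC4, a difference of 5.35 ± 0.31 (log2 ± SE, adjusted p = 1.23e-08). No PSC4 library came near the lowest KPC4 library for either gene.

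Areg encodes amphiregulin, an EGFR ligand of lower affinity. With Control-SU it was close to the limit of detection in PSC4, at 0.235, 0.411 and 0.198 CPM, from 6 to 13 counts per library. In KPC4 it stood at 9.96, 20.1 and 13.3 CPM, a difference of 5.66 ± 0.66 on the log2 scale (edgeR, adjusted p = 1.01e-05). Hbegf encodes heparin-binding EGF-like growth factor, which binds EGFR and ERBB4. It stood at 15.2, 10.9 and 11.4 CPM in PSC4 and at 38.1, 56.3 and 49.6 CPM in KPC4, 3.84-fold higher (log2 1.94 ± 0.36, adjusted p = 6.45e-04). Both ligands were thus higher in all 3 KPC4 libraries than in any PSC4 library.

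Ereg encodes epiregulin, which also binds EGFR and ERBB4, and its groups overlapped. It stood at 28.6, 35.7 and 29.9 CPM in PSC4 and at 10.9, 33.6 and 14.4 CPM in KPC4 (log2 difference -0.68 ± 0.45, adjusted p = 0.250). KPC4 Control-PSC-SU replicate 2 was the high library, and without it the difference was -1.31 with an adjusted p of 0.0316 in edgeR. Epgn, which encodes epigen, had 5 counts in 1 PSC4 Control-SU library, 3 counts in 1 Gem-SU library and 0 in the other 4.

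Among the receptors, Egfr stood at 172, 270 and 235 CPM in PSC4 and at 24.5, 21.8 and 23.8 CPM in KPC4. It was 9.65-fold lower in KPC4 (log2 -3.27 ± 0.23, adjusted p = 8.26e-08). Erbb3 had the opposite pattern, at 7.27, 10.6 and 8.58 CPM in PSC4 and 51.9, 37.7 and 52.7 CPM in KPC4 (log2 2.43 ± 0.56, adjusted p = 0.00300). Erbb2, the shared partner, had overlapping groups and was not called, with 77.6, 50.4 and 71.6 CPM in PSC4 and 80.6, 71.2 and 75.1 CPM in KPC4 (log2 0.19 ± 0.31, adjusted p = 0.657). Each line therefore held ligand and receptor transcripts, in different proportions.

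Between the lines in the Gem media, the order held for Areg, Btc, Tgfa, Egfr and Erbb3. Here 4 of the 8 were higher and 1 lower in KPC4, where 47.5% of all genes tested differed, 24.3% being higher and 23.2% lower. The log2 difference, KPC4 minus PSC4, was 4.76 ± 0.56 for Areg, 5.53 ± 0.30 for Btc, 3.28 ± 0.20 for Tgfa, -2.16 ± 0.22 for Egfr and 3.09 ± 0.58 for Erbb3 (adjusted p at most 5.90e-04). Hbegf no longer passed, at -0.70 ± 0.35 (adjusted p = 0.113), and neither did Ereg at -0.42 ± 0.45 (adjusted p = 0.460) nor Erbb2 at 0.31 ± 0.31 (adjusted p = 0.431). These 3 rested on the KPC4 Gem-PSC-SU libraries: without replicate 2 they passed, at -1.07 for Hbegf (adjusted p = 0.0246), -1.10 for Ereg (0.0399) and 0.63 for Erbb2 (0.0362). Without replicate 1 the difference of Erbb2 turned to -0.15.

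Levels of different genes were compared as CPM per kilobase of exon, a rough scale because the length is that of all annotated exons joined. In PSC4 with Control-SU the receptors led, Egfr at 19.9 ± 4.37 and Erbb2 at 12.8 ± 2.74 CPM per kilobase (mean ± SD, n = 3), followed by Ereg at 7.61 and Hbegf at 2.59. Erbb3 at 1.46 and Tgfa at 1.07 overlapped, as did Btc at 0.247 and Areg at 0.232. With Gem-SU the order of PSC4 changed at the top: Hbegf led at 61.0 ± 4.53, before Ereg at 38.5 ± 6.29, Egfr at 13.4, Erbb2 at 8.88 and Areg at 4.44 CPM per kilobase, with no overlap between neighbours.

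In KPC4 with Control-PSC-SU, Tgfa led at 16.9 ± 0.777 CPM per kilobase, above Erbb2 at 14.5, and Egfr was last at 2.06, below Ereg at 4.76. The 6 genes from Erbb2 to Ereg, among them Areg at 11.9, Btc at 10.1, Hbegf at 9.93 and Erbb3 at 7.88, each overlapped the next. With Gem-PSC-SU, Areg had the highest mean, 120 ± 88.3 CPM per kilobase, followed by Hbegf at 37.5 ± 20.6 and Ereg at 28.6 ± 19.4. All neighbours in that order overlapped, down to Erbb3 at 8.27 and Egfr at 2.99, so that the order in this group was not resolved beyond the spread of its libraries.

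**Figure D2:**
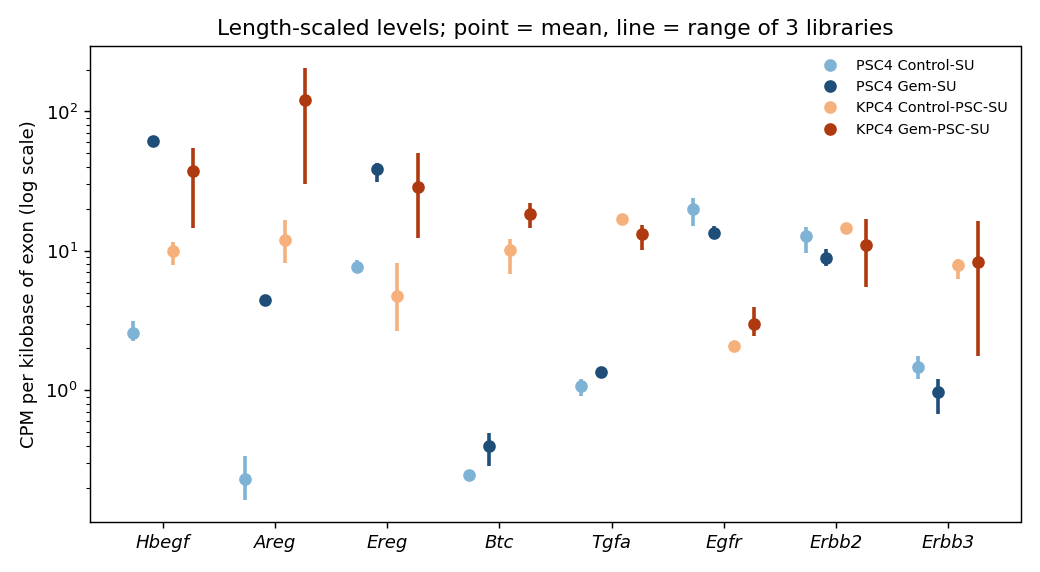
Level of each gene in CPM per kilobase of exon on a log axis, by line and medium; points are means and lines the range of 3 libraries. In PSC4 the top of the order passes from Egfr to Hbegf with Gem-SU, and in KPC4 the Gem-PSC-SU ranges overlap between neighbouring genes.

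The second question was how PSC4 stellate cells changed in Gem-SU. The ligand genes Hbegf, Areg and Ereg rose. No receptor passed the test, and all of Egfr, Erbb2 and Erbb3 had lower means. Thus 3 of the 8 genes tested were called, all higher, where 46.3% of all 13347 genes tested were called, 24.3% higher and 22.0% lower. The groups did not overlap for all 5 ligands tested, all higher, and for Egfr and Erbb3, both lower, against 56.7% of all genes, 27.8% higher and 28.9% lower. The stellate and fibroblast markers summed to 2405 to 3873 CPM with Gem-SU, below their range with Control-SU, with all 11 listed genes still above 1 CPM. Acta2 was not lower throughout, going from 17.9, 12.6 and 17.1 CPM to 36.2, 16.6 and 25.9 CPM. Nor was Des, going from 2.85, 3.00 and 2.74 CPM to 4.21, 3.81 and 1.85 CPM. The other listed markers were lower in every Gem-SU library than in any control library. Mki67, a marker of cycling cells, went from 422, 1027 and 746 CPM to 1230, 2059 and 2684 CPM. Their part in the ligand values was not tested. In RNA from a whole culture, a change in every cell and a change in the share of cells with the transcript cannot be told apart, and neither can fewer cells of a kind and less RNA per cell.

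Hbegf had the largest change. It stood at 15.2, 10.9 and 11.4 CPM with Control-SU and at 289, 276 and 319 CPM with Gem-SU. Each Gem-SU library was at least 22.1 times the mean of the controls, and the fitted change was 24.3-fold (log2 4.61 ± 0.19, edgeR adjusted p = 1.45e-05). In the authors' deposited table it was 4.57 on the log2 scale, the second row of 15371.

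Areg went from 0.235, 0.411 and 0.198 CPM to 4.92, 5.91 and 5.36 CPM, or from 6 to 13 counts up to 162 to 200 counts. The rise was 19.5-fold (log2 4.29 ± 0.38, edgeR adjusted p = 1.12e-04). Areg passed the filter on low counts through its Gem-SU libraries. It was not tested where every library had to hold at least 10 counts. Its level stayed below that in any KPC4 library, so the fold change was of a like size to that of Hbegf while the level reached was far lower. Ereg went from 28.6, 35.7 and 29.9 CPM to 129, 170 and 177 CPM, 5.21-fold (log2 2.38 ± 0.18, adjusted p = 5.98e-05). All 3 rises kept their call under all alternatives in which the gene was tested, with an adjusted p of at most 0.00195.

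Btc stayed low in PSC4, at 1.09, 1.17 and 1.09 CPM with Control-SU and 1.29, 2.24 and 1.82 CPM with Gem-SU (log2 0.72 ± 0.38, adjusted p = 0.153). Tgfa stood at 5.94, 7.12 and 7.85 CPM and at 8.06, 9.18 and 8.94 CPM (log2 0.37 ± 0.21, adjusted p = 0.172). The groups were apart for each gene, and neither change passed. Of the 4 neighbouring ligand genes on chromosome 5, then, Ereg and Areg rose, Btc did not pass and Epgn was at the limit of detection.

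Egfr stood at 172, 270 and 235 CPM with Control-SU and at 139, 170 and 146 CPM with Gem-SU. The lowest control library lay just above the highest Gem-SU library, and the change of -0.53 ± 0.19 on the log2 scale missed the threshold (edgeR adjusted p = 0.0515). It passed without Control-SU replicate 1 (-0.69, adjusted p = 0.0165), in one fit over all 12 libraries (0.0459) and under DESeq2 (-0.53, adjusted p = 0.0320), and the adjusted p ranged from 0.00957 to 0.130 over the alternatives. The authors' deposited table gave Egfr a log2 change of -0.12 with an adjusted p of 0.722, and what sets that value apart from the deposited counts was not tested.

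Erbb2 stood at 77.6, 50.4 and 71.6 CPM with Control-SU and at 53.5, 44.9 and 40.5 CPM with Gem-SU, and its groups overlapped. The change was -0.48 ± 0.19 (edgeR adjusted p = 0.0733), and it passed without Control-SU replicate 2 (-0.67, adjusted p = 0.0151) or without Gem-SU replicate 1 (-0.59, adjusted p = 0.0345). The authors' deposited table gave -0.57 with an adjusted p of 0.0316. Erbb3 stood at 7.27, 10.6 and 8.58 CPM and at 6.16, 7.26 and 4.07 CPM (log2 -0.55 ± 0.27, adjusted p = 0.133). The receptors thus had lower means with Gem-SU by a similar log2 amount, while none was called.

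The third question was how KPC4 tumour cells changed in Gem-PSC-SU, medium that traces back to the drug through the stellate cells. Hbegf, Areg, Ereg and Btc were higher in all 3 Gem-PSC-SU libraries than in any control library, and Tgfa was lower. Without regard to replicate numbers, 0 of the 8 genes tested passed edgeR's test, where 0.00% of all 13236 genes did. At an unadjusted p under 0.05 these 4 ligands were counted, against 17.0% of all genes (2251 genes), and 10.9% in the higher direction. DESeq2 called the same 4. The groups did not overlap for 6 of the 8, 5 higher and 1 lower, against 22.6% of all genes, 12.2% higher and 10.4% lower.

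Libraries of KPC4 with the same number deviated together. The labels do not pair them, and the number was taken as a block on the same values that were then tested. With the number as a block 4 of the 8 passed, all higher, where 8.85% of all genes passed, 6.07% in that direction. The blocked change was 1.74 ± 0.28 for Hbegf (edgeR adjusted p = 0.0183), 3.03 ± 0.40 for Areg (0.0163), 2.53 ± 0.16 for Ereg (5.29e-04) and 0.87 ± 0.20 for Btc (0.0377). These calls rested in part on single replicates. Without replicate 3 in both groups only Ereg passed with the block, where 45 of all 13490 genes tested did. Without replicate 2 Areg did not pass, where 1305 of all 13222 genes did. Without replicate 1 the number of members called was 7, 4 higher and 3 lower. In that fit 3051 of all 13321 genes were called, 1801 higher and 1250 lower. The 3 members called lower there were Tgfa (-0.53, edgeR adjusted p = 0.0419), Erbb2 (-0.86, adjusted p = 0.0157) and Erbb3 (-1.10, adjusted p = 0.0438).

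Hbegf stood at 38.1, 56.3 and 49.6 CPM with Control-PSC-SU and at 70.5, 263 and 211 CPM with Gem-PSC-SU (log2 1.92 ± 0.43, edgeR adjusted p = 0.124). Areg stood at 9.96, 20.1 and 13.3 CPM and at 36.7, 251 and 150 CPM (log2 3.35 ± 0.63, adjusted p = 0.112). In both, replicate 1 was low and replicate 2 high among the Gem-PSC-SU libraries, the ratio of these libraries being 6.85 for Areg and 3.73 for Hbegf. Without Gem-PSC-SU replicate 1 both passed without the block, at 2.31 for Hbegf and 3.81 for Areg (adjusted p = 0.00161 each).

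Ereg stood at 10.9, 33.6 and 14.4 CPM with Control-PSC-SU and at 51.1, 207 and 96.8 CPM with Gem-PSC-SU (log2 2.60 ± 0.58, adjusted p = 0.120). Replicate 2 was the highest library in both groups, and of the members called with the block, Ereg kept its call without each of the 3 replicate numbers. Unblocked it passed without Gem-PSC-SU replicate 1 (2.97, adjusted p = 0.0198) and without Control-PSC-SU replicate 2 (3.23, adjusted p = 0.0443). Btc stood at 31.1, 55.4 and 50.4 CPM and at 81.6, 100.1 and 65.9 CPM (log2 0.86 ± 0.26, adjusted p = 0.175). The authors' deposited table listed Hbegf at 1.91, Areg at 3.33, Ereg at 2.59 and Btc at 0.91, with adjusted p-values of 6.63e-04, 2.05e-07, 7.60e-05 and 0.04997. By its name it is sorted by adjusted p, but Areg and Ereg stood at rows 13744 and 13782 of 14515. Erbb3, with an adjusted p of 0.985 there, came before them at row 13252, and the reason was not tested.

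Tgfa, the ligand with the highest control level per kilobase in KPC4, stood at 106, 115 and 107 CPM and at 99.5, 65.4 and 90.3 CPM (log2 -0.37 ± 0.19, edgeR adjusted p = 0.356). Egfr stood at 24.5, 21.8 and 23.8 CPM and at 27.6, 45.1 and 28.9 CPM (log2 0.54 ± 0.24, adjusted p = 0.304). For both, the groups were apart and the change did not pass with all libraries, with or without the block.

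Erbb2 and Erbb3 had overlapping groups in KPC4 and the widest spread among receptors. Erbb3 stood at 51.9, 37.7 and 52.7 CPM with Control-PSC-SU and at 99.2, 10.6 and 39.4 CPM with Gem-PSC-SU, a 9.37-fold range within the Gem group (log2 change 0.05 ± 0.61, adjusted p = 0.977). The sign turned with the block (-0.42) and without Gem-PSC-SU replicate 1 (-0.93). Erbb2 stood at 80.6, 71.2 and 75.1 CPM and at 87.6, 28.8 and 55.8 CPM (log2 -0.41 ± 0.34, adjusted p = 0.552).

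**Figure D3:**
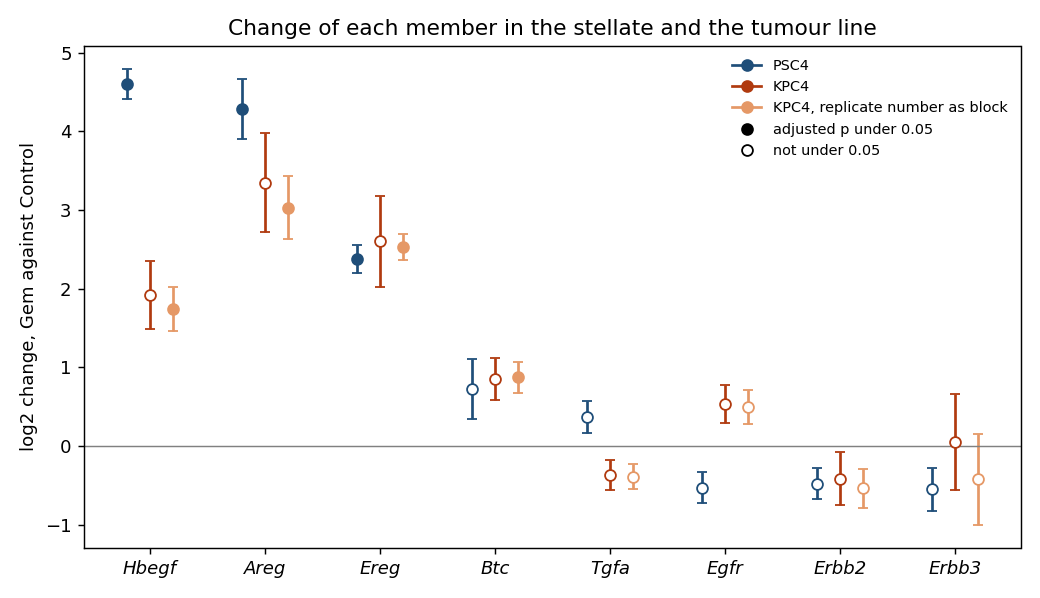
Log2 change of each gene with Gem against control medium in PSC4 and in KPC4, and in KPC4 with the replicate number as a block; bars are 1 standard error and filled points have an adjusted p under 0.05. In PSC4 the filled points are Hbegf, Areg and Ereg, and in KPC4 points are filled for 4 ligands with the block and for none without it.

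Among the Gem-PSC-SU libraries, the members differed in which replicate was high. Replicate 2 was the highest for 5 members (Hbegf, Areg, Ereg, Btc and Egfr) and the lowest for Tgfa, Erbb2 and Erbb3. Replicate 1 was the highest for those 3 and the lowest for Hbegf, Areg, Ereg and Egfr. Against the mean of the controls, Areg was 2.54-fold higher in replicate 1, 17.4-fold in replicate 2 and 10.4-fold in replicate 3. In PSC4 the same ratios of Areg were 17.5, 21.0 and 19.0, so the Gem-SU libraries of PSC4 lay closer together.

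Mki67 and the mean of a set of other genes ran in the order of Areg among these libraries. Mki67 stood at 872, 1885 and 976 CPM in KPC4 Gem-PSC-SU replicates 1, 2 and 3, and at 194, 525 and 190 CPM with Control-PSC-SU. The mean log2 CPM of 16 genes known as outputs of ERK was 6.71, 7.55 and 7.17 with Gem-PSC-SU and 6.06, 6.47 and 6.25 with Control-PSC-SU. Replicate 2 was the highest by both measures in both groups, as it was for all 5 ligands in the control group. Single genes of the 16 departed from that order. Spry4 stood at 51.7, 36.3 and 33.6 CPM and Ccnd1 at 568, 403 and 671 CPM in Gem-PSC-SU replicates 1, 2 and 3. In PSC4 with Gem-SU the mean of the 16 was 6.37, 6.27 and 6.24. The part of Mki67 and of the 16 genes in the ligand values was not tested.

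**Figure D4:**
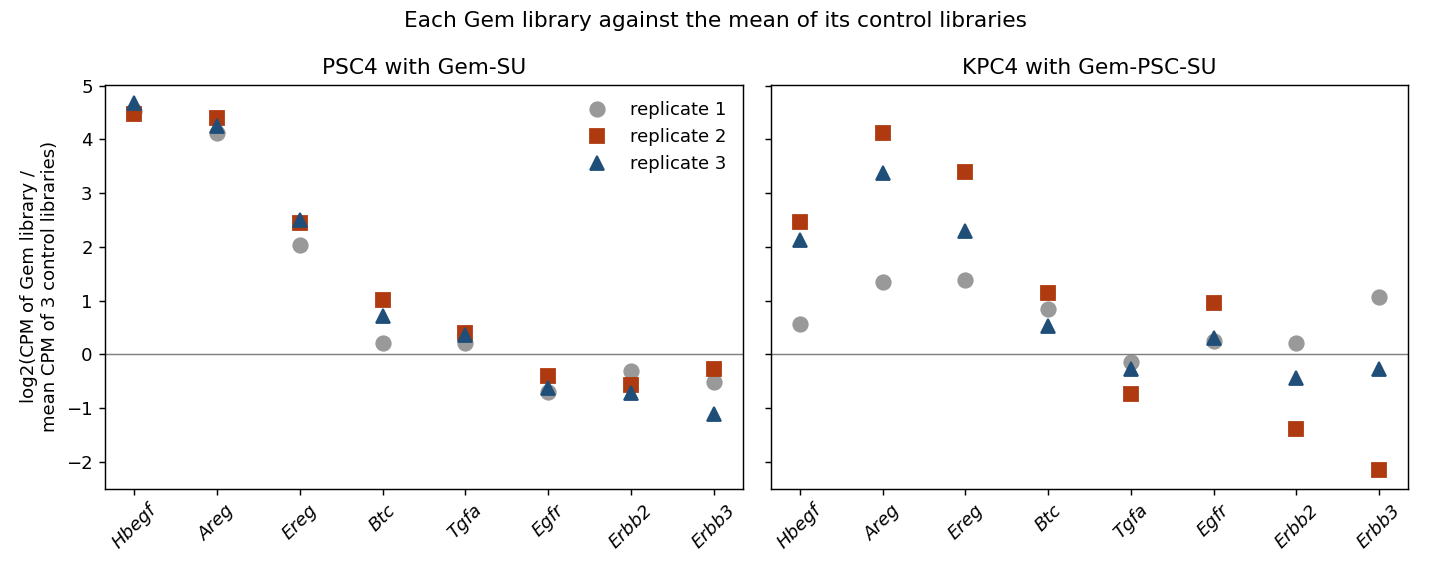
Log2 ratio of each Gem library to the mean of its 3 control libraries, by gene, in PSC4 and KPC4; marker and colour give the replicate number. The PSC4 replicates lie close together, while in KPC4 replicate 2 is high for Hbegf, Areg and Ereg and low for Erbb2 and Erbb3, and replicate 1 the reverse.

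The changes of the lines were then compared directly, as the PSC4 change minus the KPC4 change in one fit. Of the 8 genes tested, 1 was called higher and 1 lower, where 9.85% of all 13632 genes were called, 4.75% higher and 5.10% lower. Hbegf rose more in PSC4 by 2.64 ± 0.50 on the log2 scale (edgeR adjusted p = 0.00636). This held without each of the 12 libraries, between 2.23 and 3.01, with adjusted p-values between 9.04e-04 and 0.0223. From a lower control level, Hbegf in PSC4 reached 295 ± 21.9 CPM (SD, n = 3), and in KPC4 181 ± 99.5 CPM.

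Egfr differed by -1.11 ± 0.30 (edgeR adjusted p = 0.0352), its mean being lower with Gem-SU in PSC4 and higher with Gem-PSC-SU in KPC4, though neither change was called by itself. The call was lost without any 1 of 8 libraries, namely PSC4 Control-SU replicates 2 and 3, all 3 PSC4 Gem-SU and all 3 KPC4 Control-PSC-SU replicates, with adjusted p-values from 0.0502 to 0.0902. Areg differed by 0.90 ± 0.81 (adjusted p = 0.523) and Ereg by -0.25 ± 0.63 (adjusted p = 0.836), so a difference between the lines was not shown for them. Tgfa differed by 0.69 ± 0.26 (adjusted p = 0.109), and with the block by 0.71 (adjusted p = 0.0489).

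Other genes of the pathway were read from lists by role, set with earlier results of these data known. Of the other EGF family, 4 of 6 genes were tested, and in PSC4 2 were higher and 1 lower, where 24.3% of all genes were higher and 22.0% lower. Nrg1, the neuregulin that binds ERBB3 and ERBB4, was the most abundant of them, at 126 ± 21.2 CPM with Control-SU and 145 ± 13.2 CPM with Gem-SU (SD, n = 3; adjusted p = 0.256). In KPC4 it stood at 2.75, 7.63 and 2.23 CPM and at 4.94, 29.0 and 6.11 CPM (log2 1.69, edgeR adjusted p = 0.290, and 0.0218 with the block). In the control media Nrg1 was lower in KPC4 than in PSC4 by 4.90 ± 0.66 on the log2 scale (adjusted p = 4.03e-05), the reverse of Erbb3. Egf and Nrg2 rose in PSC4, by 1.57 and 2.37 on the log2 scale, to means of 3.69 and 1.95 CPM, and Egf lost its call in one fit over all 12 libraries (edgeR adjusted p = 0.0738). Nrg4 fell by 2.79 from below 1 CPM. Erbb4 was close to 0 in PSC4 and not analysed here in KPC4, and Nrg3 was not analysed here.

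Of 12 genes for the release of ligands, 4 rose and 3 fell in PSC4, where 24.3% of all genes were higher and 22.0% lower, with a median log2 change of 0.13 against -0.0032 over all genes. Adam17, the main shedding protease of Areg, Ereg, Hbegf and Tgfa, fell by 0.42 (edgeR adjusted p = 0.0318), and Adam10, which sheds Btc and Egf, by 0.80 (adjusted p = 0.00232). Adam9 fell by 0.70. Adam12, another protease reported to shed Hbegf, rose by 3.48 ± 0.77 (adjusted p = 0.00649), but only from 0.294, 0.0316 and 0.396 CPM to 1.32, 2.13 and 4.47 CPM. Rhbdf2 and Frmd8, which take ADAM17 to the cell surface and hold it there, rose by 1.15 and 0.90, and the rhomboid protease gene Rhbdl2 by 0.99. Frmd8 lost its call without Gem-SU replicate 2 (adjusted p = 0.0518), and Rhbdl2 without that library or without Control-SU replicate 1 or 2. In KPC4, 0 of 11 passed, where 0.00% of all genes did. Timp3, an inhibitor of ADAM17, had the smallest p there (log2 1.07, edgeR adjusted p = 0.185, and 0.0217 with the block).

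Of 12 genes listed for feedback on the receptors, 11 were tested in PSC4, where 4 rose and 1 fell, with a median of 0.48. Whether each of them, Lrig3 among them, restrains the receptors in these cells was not tested. Over all genes 46.3% were called in PSC4, a share like that of this list. Errfi1, which binds and blocks the EGFR kinase, rose from 315, 213 and 273 CPM to 559, 496 and 560 CPM (log2 1.06 ± 0.18, edgeR adjusted p = 0.00198). Lrig3 rose by 1.33 and Lrig1, which favours the breakdown of ErbB receptors, by 0.48. The phosphatase gene Ptprk rose by 0.56, and Socs5 fell by 0.37. Lrig1 lost its call without Control-SU replicates 2 or 3 or Gem-SU replicates 2 or 3, and Ptprk without Control-SU replicate 3. In one fit over all 12 libraries the calls of Errfi1 (adjusted p = 0.0551), Lrig1 (0.0593) and Ptprk (0.0634) were lost. In KPC4, 0 of 12 passed, where 0.00% of all genes did. Errfi1 there stood at 292, 329 and 341 CPM and at 432, 2177 and 1387 CPM, apart in every library but unequal among replicates (log2 2.06 ± 0.49, adjusted p = 0.124).

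Of 22 genes of the signal relay, 4 rose and 7 fell in PSC4, with a median of 0.03, a share near that of all genes (24.3% higher and 22.0% lower). Mapk3, which encodes ERK1, fell from 135, 101 and 111 CPM to 44.0, 25.0 and 25.0 CPM (log2 -1.83 ± 0.25, edgeR adjusted p = 6.55e-04). Stat3 fell by 1.23 and Akt2 by 0.76, and Hras rose by 1.10. In KPC4, 0 of 22 passed, where 0.00% of all genes did, and the smallest p-values were those of Map2k2 at -0.39 and Plcg1 at -0.45.

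Of 16 genes known as ERK outputs, 12 rose and 1 fell in PSC4, with a median log2 change of 1.70 against -0.0032 over all genes and 24.3% of all genes called higher. Egr1, an immediate early transcription factor, rose from 112, 85.7 and 69.4 CPM to 2984, 3329 and 3992 CPM (log2 5.32 ± 0.28, edgeR adjusted p = 1.93e-05). Fosl1, a subunit of AP-1, rose by 3.71, the receptor gene Epha2 by 3.14 and the ERK phosphatase gene Dusp6 by 3.03. The gene that fell was Spred1, an inhibitor of RAS signalling, by 0.55. These genes are also induced by other pathways, and ERK activity was not measured. The list was chosen with earlier results of these data known, so its counts beside all genes are a description.

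In KPC4, 0 of the 16 passed, where 0.00% of all 13236 genes did, and the median was 0.36 against -0.02 over all genes. In edgeR 8 of them had an unadjusted p under 0.05 (7 higher), against 17.0% of all genes and 10.9% in the higher direction. Egr1 stood at 31.4, 35.2 and 41.5 CPM and at 285, 3532 and 1415 CPM (log2 5.61 ± 0.82, edgeR adjusted p = 0.106). Phlda1, a target of growth factor signalling, had a log2 change of 2.38 (adjusted p = 0.112). With the block Dusp5, Epha2 and Fosl1 passed, where 6.07% of all genes were higher. Several of these genes were already high in control KPC4: Dusp6 averaged 254 ± 77.8 CPM there and 6.41 ± 1.81 CPM in control PSC4 (SD, n = 3 each; log2 difference 5.31, edgeR adjusted p = 1.55e-08). In the comparison of the changes, 5 of the 16 rose more in PSC4 (Dusp6, Etv5, Spry4, Etv4 and Dusp4), where 4.75% of all genes did.

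**Figure D5:**
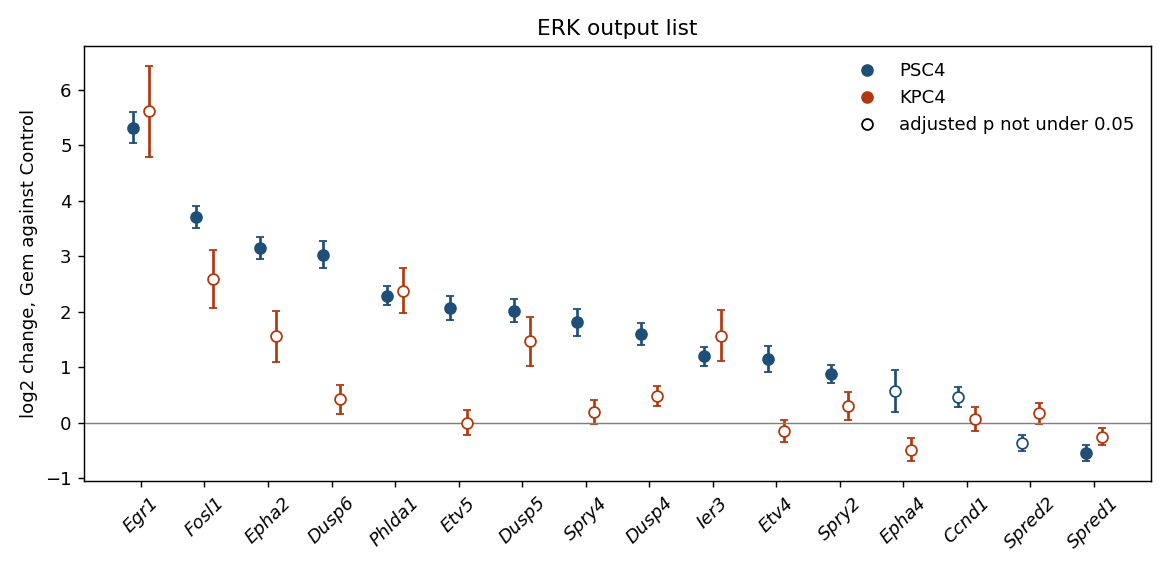
Log2 change of the 16 ERK output genes with Gem against control medium in PSC4 and KPC4, ordered by the PSC4 value; bars are 1 standard error and open points did not pass an adjusted p of 0.05. In PSC4 12 genes are higher and 1 lower among the filled points, and all KPC4 points are open, with Egr1 high in both lines.

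The genes whose log2 CPM ran most like each member over the 12 libraries were taken from 10915 candidates by Pearson's r. The libraries fall into 2 lines, so that r carries the difference between the lines as well as that between media, and it is given as a description. For Hbegf these were Lif, a cytokine of the interleukin 6 family (r = 0.994), Smtn (0.985) and Kpna4 (0.978). For Areg they were Mark3 (0.985), Plaur, the receptor of urokinase (0.984), and Flrt3 (0.984). For Ereg they were Spdl1 (0.992), Mcm10 (0.990) and Dbf4 (0.987), the last 2 with roles in DNA replication. For Tgfa the first was Foxa1 (0.998), for Btc Nrk (0.994), for Egfr Flrt1 (0.991), for Erbb3 Mink1 (0.989) and for Erbb2 Lmbr1l (0.955).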

How the data were processed

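RNA-seq libraries of PSC4 and KPC4 cells, 3 in each of 4 groups, were analysed from 1 count table per line. The submitters' processing notes name FastQC, Trim Galore 0.6.10, cutadapt 5.2, Salmon, R 4.5.1, DESeq2 and the build GRCm39, with no role or order given. The values deposited by the authors are whole numbers, treated as estimated counts that were already rounded, and the annotation and any filter are not given in the sources used here. The smallest row total is 0 in the PSC4 table and 11 in the KPC4 table. For each line there is also the authors' deposited table of log2 fold changes, p-values and adjusted p-values, quoted as theirs. Symbols and exon lengths came from GENCODE M21, which matched 16329 of 16386 and 15265 of 15309 identifiers. Counting of near-identical or overlapping genes is not known.

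Each line was tested with edgeR 4.0.16 in R 4.3.3 (filterByExpr, TMM, robust quasi-likelihood test, Benjamini-Hochberg adjustment over all genes, threshold 0.05). Contrasts between lines came from one fit of 12 libraries and 13632 genes. SE is the log2 change divided by the square root of F. Lists were described by counts and medians. Pathway genes were named, per list and line, as up to 4 called genes with the largest change among those with a mean of at least 1 CPM, or else the 2 with the smallest p, and genes called lower, abundant or flagged were named after their values were seen. Likeness used candidates averaging at least 5 CPM in 1 group and a prior count of 2. The members and lists were chosen with earlier results of these data known. In KPC4, libraries that share a number deviated together (r of 0.351, 0.436 and 0.211, all above 0.1), so numbers were taken to pair KPC4 libraries on the values alone. On simulated counts with known changes, edgeR called 90.5% of 4-fold and 38.8% of 2-fold changes for the PSC4 comparison (13164 genes), and 82.7% and 19.0% for KPC4 (13047 genes). Of the simulated calls, 3.88% for PSC4 and 7.41% for KPC4 were of unchanged genes. Far fewer genes were changed there than were called in PSC4. The simulated counts were drawn independently, without the deviations that KPC4 libraries of one number shared. These rates therefore do not give the power of the test on the real counts. Alternatives were DESeq2 1.42.0, its size factors, no filter, at least 10 counts in every library, robust estimation off, the replicate block, one fit of 12 libraries and leaving out each library, and leaving out each replicate number with the block was added after seeing the data. At these depths counting error is small for all members except Areg, Btc and Epgn in PSC4. Unused columns of per-sample values numbered 0.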

Additional observations from a re-analysis of the deposited data

Results flagged for a closer look

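The genes below are listed because their response differed between the lines when that difference was tested directly: the PSC4 change minus the KPC4 change, in one fit of 12 libraries, passed an adjusted p of 0.05 in edgeR. The difference was 2.64 for Hbegf (adjusted p = 0.00636) and -1.11 for Egfr (adjusted p = 0.0352), on the log2 scale. Among the pathway genes named by rule it was 3.58 for Adam12 (adjusted p = 0.0149), 2.56 for Dusp6 (adjusted p = 0.00156), -1.62 for Mapk3 (adjusted p = 0.0120) and -1.52 for Stat3 (adjusted p = 9.33e-04). Adam12 stood between 4.94 and 9.35 CPM in KPC4 and at most at 4.47 CPM in PSC4. Stat3 went from 247, 263 and 252 CPM to 109, 109 and 97.9 CPM in PSC4 and from 147, 120 and 144 CPM to 162, 158 and 167 CPM in KPC4. Line and medium differ together and cannot be told apart.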

How the results depend on the processing

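In PSC4 the members called were 3, and 5 (of 7266 genes called) with the replicate block, which added Egfr (-0.51, adjusted p = 0.0102) and Erbb2 (-0.46, adjusted p = 0.0263); numbers did not pair these libraries (correlations 0.429, -0.053 and 0.107). Without 1 library each they were 3 to 4, and all genes called 4061 (without Gem-SU replicate 2) to 6826. In KPC4 the members called moved from 0 to 4 under DESeq2, 4 with the block and 3 in one fit, and all genes called from 0 to 822, 1171 and 610. Without 1 library each these were 0 to 3 members and 0 to 1129 genes. With the block and without replicate 1, 2 or 3 in both groups they were 7, 3 and 1 members and 3051, 1305 and 45 genes.

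For the difference between the lines, all genes called moved from 1343 to 2145 under DESeq2 and 2988 with the block. Without 1 library each they were 610 to 1993, with 1 to 2 members. Between lines in the Gem media, 5 to 8 members and 5393 to 6710 of all genes were called without 1 library each. Without KPC4 Gem-PSC-SU replicate 2 these were 8 members and 6710 of all 13777 genes tested. With at least 10 counts in every library, where Areg was not tested, they were 4 members and 5392 of all 11211 genes. The block changed no other member's call than those given here and in the results, except that Ereg became lower in KPC4 than in PSC4 in control media (-0.85, adjusted p = 0.0374).

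The sign turned for Erbb3 in KPC4 with the block (-0.42), and with it without replicate 1 (-1.10) or 3 (-0.42), and unblocked without Control-PSC-SU replicate 2 (-0.07) or Gem-PSC-SU replicate 1 (-0.93). For the difference between lines it turned for Erbb2 with the block (0.024), without PSC4 Control-SU replicate 1 (0.00097) and without KPC4 Gem-PSC-SU replicate 1 (0.29), for Erbb3 without the latter (0.31), for Ereg without KPC4 Control-PSC-SU replicate 1 (0.05) or Gem-PSC-SU replicate 2 (0.43), and for Btc without that control library (0.052). Without 1 library each, the difference lay from -0.89 to 0.43 for Ereg, -0.40 to 0.052 for Btc, -0.45 to 0.29 for Erbb2 and -1.14 to 0.31 for Erbb3. Erbb2 turned between lines in Gem media without KPC4 Gem-PSC-SU replicate 1 (-0.15 to 0.63), and the KPC4 change of Erbb3 ran from -0.93 to 0.52. None of these had been called with all libraries. Of the turned values, Erbb3 with the block and without replicate 1 passed (adjusted p = 0.0438). Causes were not tested. At least 10 counts in every library left Areg untested in PSC4, where 2 of 7 members tested and 5890 of all 12138 genes were called.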

Other observations

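Lines also differed in other genes that act on the receptors. In the control media KPC4 held more ERK output transcripts than PSC4, 12 of 16 being called higher and 0 lower, with a median log2 difference of 1.43 against -0.0395 over all genes and 20.6% of all genes called higher. In the Gem media 8 were higher and 1 lower, with a median of 0.92, where 24.3% of all genes were higher and 23.2% lower. Cblc, a ubiquitin ligase of the epithelium that acts on EGFR, averaged 17.4 CPM in control KPC4 and 0.0294 CPM in control PSC4. Nrg4, an ERBB4 ligand, averaged 4.17 CPM in control KPC4 and 0.637 CPM in control PSC4, and Gab1, an adaptor of EGFR, 8.41 and 58.9 CPM. Timp3 averaged 37.7 CPM in control KPC4 and 261 CPM in control PSC4. These genes were picked after their values were seen.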
